A study of Mus musculus with 6 samples.

Results

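The spots described here were chosen to mark the granule cell layer of the mouse dentate gyrus (DG) and were taken from 6 coronal brain sections profiled by spatial transcriptomics. They were chosen by measured values. In each section, every spot over tissue with at least 500 UMIs (unique molecular identifiers, each counted once) was scored by its CPM (the UMIs of a gene scaled to the same total in every spot) of Prox1, C1ql2, Stxbp6 and Dsp. Each gene's CPM was divided by its mean over the section, the 4 ratios were averaged, and the top 1% of spots of each section were kept. This gave 206 spots of 20336. A spot is a small area that can hold several cells of different types, so the spots were described as a layer and not as a cell type.

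The sections came from untreated male C57BL/6J mice of 3 ages, with 2 sections per age that the labels give as biological replicates. They were from postnatal day 21 (P21), from adults of 12 to 15 weeks and from mice of 28 months (aged). The brains were formalin fixed, embedded in paraffin and cut at 5 µm, and transcripts were read with gene-specific probes. By the labels, P21 mice were bred in house, adult mice were bought from a supplier and aged mice came from the National Institute on Aging, whereas the methods of the study name a single supplier for its C57BL/6J mice. Tissue of the P21 and adult mice went straight onto slides of the first version. By the study's methods, aged tissue was transferred by an instrument to slides of the second version. The labels of the aged samples instead name the slide kit of the first version. No spot barcode was shared between an aged section and a P21 or adult one. By the study's methods, the aged libraries also followed the second version of the protocol, with a changed probe design. Slide version, transfer, probe design and the version of the counting software therefore cannot be told apart from age in aged vs. adult, nor can the source of the mice as labelled in either comparison. P-values measure the spread between the 2 sections of an age, pooled over all 3 ages.

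The granule layer is the densely packed cell body layer of the dentate gyrus, the input stage of the hippocampus. Its excitatory granule neurons receive entorhinal input and send mossy fibre axons to hilar mossy cells and to CA3 pyramidal neurons. In mice most granule neurons are born after birth, and stem cells at the inner border of the layer go on making new ones in the adult, a process known as adult neurogenesis that declines with age. New granule neurons pass through a stage with doublecortin (Dcx) before they take up the gene expression of mature granule neurons.

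The members numbered 36 and 34 at P21, 30 and 33 in adult and 37 and 36 in aged. Their summed depth was 1676074 and 946572 UMIs at P21, 1046643 and 1242455 UMIs in adult, and 964288 and 2532251 UMIs in aged. Median UMIs per member were lowest in aged 1 (26013) and highest in aged 2 (74041.5), so the 2 aged sections differed most in depth. Members were deeper than their sections in all 6 cases, by 1.33 (aged 1) to 2.90 (aged 2) times the median of all spots. A member's score, given as multiples of the section mean, had medians of 15.7 and 18.2 at P21, 16.3 and 17.9 in adult, and 19.8 and 23.1 in aged. The last member inside the threshold and the first spot outside it scored 9.09 and 8.72 in P21 1, 10.3 and 10.1 in P21 2, 12.3 and 12.3 in adult 1, 15.0 and 14.9 in adult 2, 15.6 and 15.4 in aged 1, and 17.1 and 16.6 in aged 2. The scores thus ran on across the threshold without a gap.

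**Figure D1:**
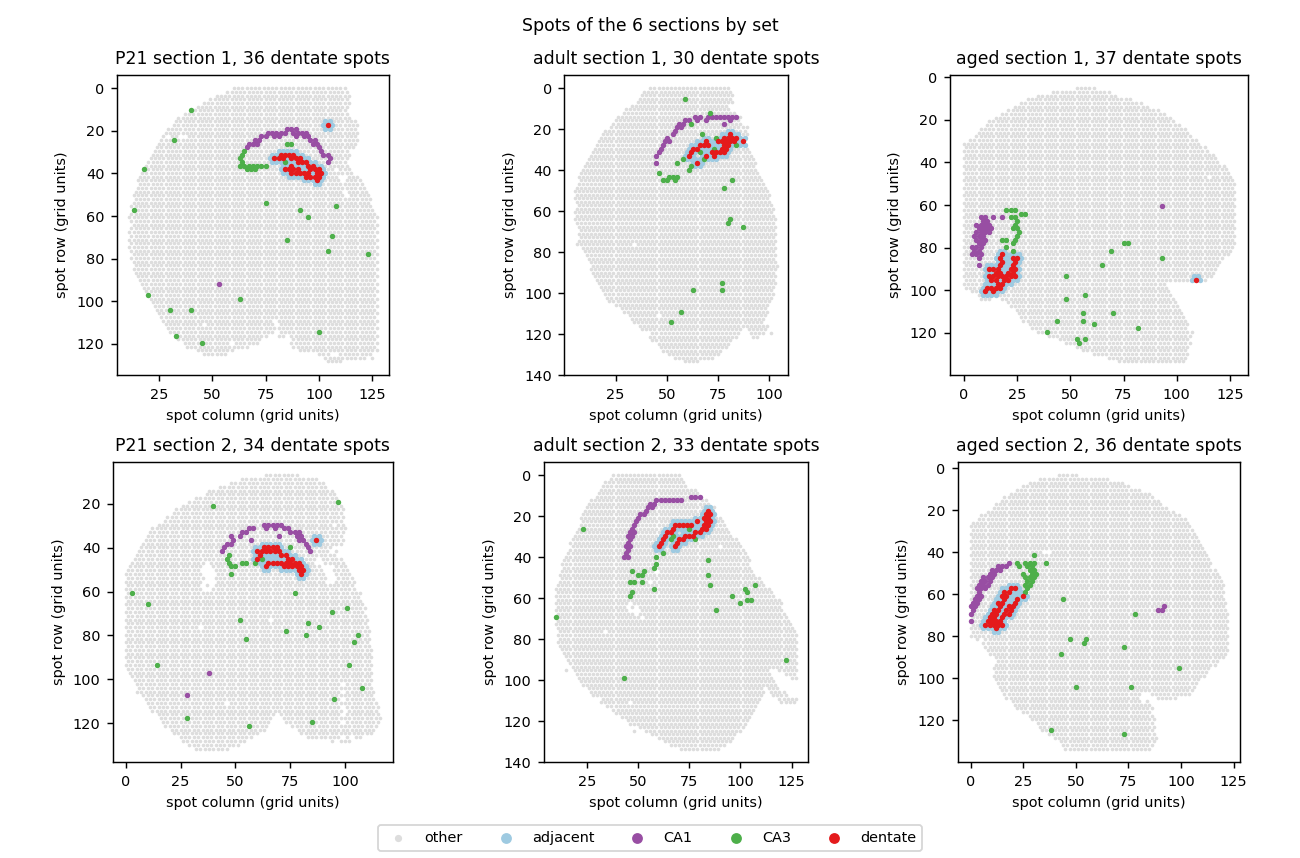
Position of the chosen spots in the 6 sections; the axes are spot column and spot row of the slide grid. Coloured points are dentate, CA1 and CA3 spots and grey points all other spots with at least 500 UMIs. The dentate spots, 206 in all, form connected bands, whereas CA3 spots are more scattered.

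Position was not used by the rule. Between 90.0% (adult 1) and 97.3% (aged 1) of members had another member next to them on the spot grid, and the members formed 2 connected groups in 4 of the sections, 3 in adult 2 and 5 in adult 1. Members with no other member next to them numbered 3 in adult 1 and 1 in each of the other sections. Some of these lone members did not carry the label. That of aged 1 had 2683 UMIs and, of the 4 score genes, UMIs of Dsp only. That of P21 1 had no UMI of Prox1, and that of P21 2 had none of C1ql2 and 22936.5 CPM of Mbp. With only the members that had a neighbour, 767 genes were higher and 410 lower in the test of P21 vs. adult described below, and 344 higher and 279 lower in aged vs. adult. CA1 and CA3 spots, chosen in the same way from 4 genes each (206 and 204 spots), served for comparison. CA1 spots were as connected (88.2% to 100% with a neighbour of their own kind). CA3 spots were not (21.2% to 65.7%), so the CA3 set is a looser sample of its region.

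A list of 20 genes known from dentate granule cells, outside the score, was set beside the label. It was chosen with earlier results of these data known, so it is not an independent check. The levels that follow describe the spots and were not tested, since the spots were chosen on RNA of the same sections. Of these 20 genes, 18 were higher in members than in the spots next to them in all 6 sections, 17 were higher than in CA1 spots and 18 higher than in CA3 spots. Summed, they made up 3442 and 3743 CPM of members at P21, 5076 and 5096 CPM in adult and 4562 and 5307 CPM in aged, against 898 to 1069 CPM in CA1 spots and 1044 to 1177 CPM in CA3 spots. The highest ratio to all other spots was that of Tdo2, which encodes tryptophan dioxygenase, with a median over sections of 35.4 times (19.2 to 43.8). Lct, the gene of lactase, followed at 25 times. Calb1, calbindin, stood at 1.69 times, and Gsg1l, an AMPA receptor auxiliary subunit, at 1.09 times and above the other spots in 3 of 6 sections. Over the summed members of each section, the granule cell label therefore held for nearly all genes of the list.

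The score genes set the rule and are given as levels only, here in CPM after TMM scaling, which adjusts for differences in composition between sections. Prox1, the transcription factor that maintains granule cell identity, stood at 673 and 681 CPM at P21, 617 and 638 CPM in adult and 515 and 713 CPM in aged. C1ql2, a synaptic protein of mossy fibres, stood at 454 and 480.3 CPM at P21, 1172 and 1168 CPM in adult and 580.3 and 583 CPM in aged. Stxbp6, a SNARE regulator, stood at 357 and 332, 717 and 803, then 506 and 735 CPM in the same order, and Dsp, desmoplakin, at 232 and 264, 319 and 311, then 239 and 312 CPM. The 4 genes together were thus lower in members at P21 (1716 and 1757 CPM) than in adult (2824 and 2919 CPM), with aged sections between or near P21 (1840.3 and 2343 CPM). In the mm10 build these genes lie at chr1:190118035-190170714 (Prox1), chr1:120340582-120343174 (C1ql2), chr12:44852484-45074709 (Stxbp6) and chr13:38151294-38198577 (Dsp).

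**Figure D2:**
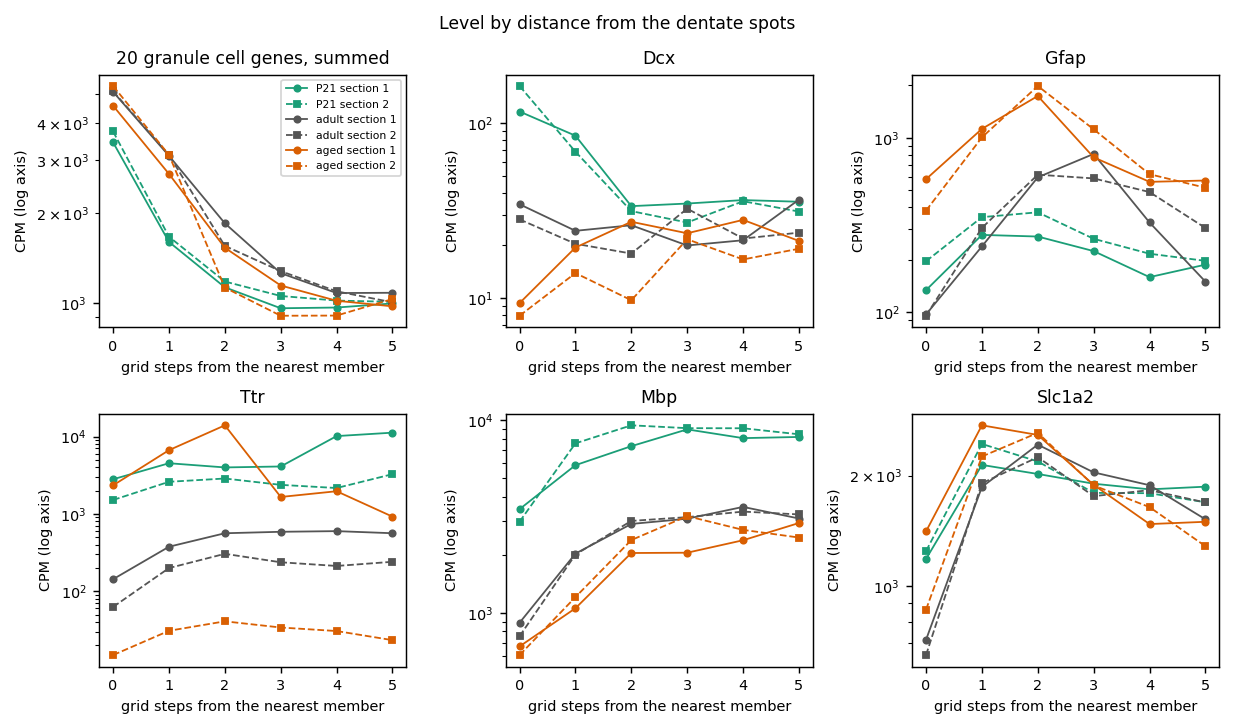
Level in CPM, on a log axis, of the 20 granule genes summed and of Dcx, Gfap, Ttr, Mbp and Slc1a2, against distance from the nearest member in steps of the spot grid; step 0 is the members. There is 1 line per section, coloured by age. The granule genes drop within 1 step to between 44.6% and 61.3% of their level in members, while Gfap and Mbp are lower in members than next to them.

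Levels in plain CPM, without TMM scaling, changed steeply with distance from the members. One step away on the spot grid the 20 granule genes stood at 46.6% and 44.6% of their level in members at P21, at 61.2% and 61.3% in adult and at 59.2% and 58.9% in aged. At 2 steps they stood at 21.3% to 36.4%. Dcx, a microtubule protein of migrating young neurons, was highest in the members at P21 (117 and 164 CPM, then 85.0 and 68.8 CPM at 1 step and 33.6 and 31.4 CPM at 2 steps). In adult it stood at 34.4 and 28.2 CPM in members and at 24.2 and 20.4 CPM at 1 step. In aged sections the order was turned, with 9.33 and 7.90 CPM in members and 19.4 and 13.9 CPM at 1 step. Gfap, the intermediate filament of astrocytes, was higher farther out in adult (97.5 and 95.8 CPM in members, 239 and 305 CPM at 1 step, 594 and 615 CPM at 2 steps) and in aged (579.7 and 383, 1125 and 1006, then 1736 and 1979 CPM). Mbp, myelin basic protein, was lower in members than 1 step away in all 6 sections. Granule genes thus peaked in the members, and the astrocyte and myelin genes stood higher next to them. Ttr, transthyretin, a secreted product of choroid plexus epithelium, ran from 2341 CPM in members to 13949 CPM at 2 steps in aged 1 but from 15.0 to 40.9 CPM in aged 2. The aged sections thus lay much farther apart in Ttr than in the other genes shown, and its values are given beside the results it moved with.

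Which genes of the layer differed between P21 and adult was tested on UMIs summed over the members of each section. Values below are CPM after TMM scaling, changes are log2 changes with their standard error, and a gene was called where its Benjamini-Hochberg adjusted p (edgeR quasi-likelihood test over all genes tested) was under 0.05 and its change over 1.5-fold. Of 10528 genes tested, 795 (7.55%) were higher and 421 (4.0%) lower at P21. The median change was -0.01, and 2849 genes had an unadjusted p under 0.05. With 2 sections per age, the P21 and adult sections did not overlap in 59.3% of all genes tested, so the lack of overlap of a single gene is a description only. The layer at P21 had more RNA of young neurons and oligodendrocytes, and less of several mature granule cell genes. Without P21 1, P21 2, adult 1 or adult 2, 289, 414, 491 and 282 genes were higher and 170, 236, 339 and 206 lower. Without either aged section the fit called more (1085 or 1086 higher, 541 or 521 lower). A value from summed spots cannot tell fewer cells of a type from less RNA per cell. Counts of calls per gene group with 1 section left out are given in the order P21 1, P21 2, adult 1, adult 2, aged 1, aged 2.

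Immature granule neuron genes rose almost as a whole. Of 14 tested, 13 were higher at P21 and none lower, with a median change of 1.95. With 1 section left out the count was 12, 12, 12, 12, 13 and 13. Dcx (chrX:143855842-143933311) had 116 and 161 CPM at P21, 34.7 and 28.6 CPM in adult and 9.33 and 7.91 CPM in aged. The 3 ages did not overlap, and the change from adult to P21 was 2.11 ± 0.21, adjusted p = 4.31e-06. Igfbpl1, a secreted protein of newborn neurons, had 120.1 and 142 CPM at P21, 15.4 and 4.91 CPM in adult and 0 and 1.58 CPM in aged, and its change was 3.72 ± 0.31, adjusted p = 4.25e-07. Dpysl3, which steers growth cones, had 140.2 and 148 CPM at P21 against 19.3 and 27.8 CPM in adult (2.59 ± 0.20, adjusted p = 2.50e-07). Nnat, neuronatin, had 389 and 457 CPM at P21 against 77.1 and 62.2 CPM in adult (2.60 ± 0.23, adjusted p = 8.59e-07). Sox11, a transcription factor of young neurons, had 221 and 298 CPM at P21 against 78.0 and 59.7 CPM in adult (1.91 ± 0.18, adjusted p = 2.85e-06). In each of these 5 genes both P21 sections lay above both adult sections, and all 5 calls held under every alternative tried. Of 10 pan-neuronal genes tested, 2 were higher and none lower, and both calls held under every alternative tried. Stmn2, a microtubule regulator of growing axons, had 628 and 623 CPM at P21 against 143 and 135 CPM in adult (2.17 ± 0.19, adjusted p = 7.48e-07), and Tubb3, the neuronal beta-tubulin, had 241 and 185 CPM at P21 against 71.3 and 77.7 CPM in adult (1.53 ± 0.19, adjusted p = 4.26e-05).

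Stem cell and niche genes were less even. Of 8 neural stem cell genes tested, 5 were higher at P21 and none lower (median 0.95), and with 1 section left out 2, 2, 2, 3, 6 and 6 were higher. Fabp7, the fatty acid binding protein of radial glia, had 82.8 and 71.7 CPM at P21 against 24.1 and 18 CPM in adult (1.90 ± 0.24, adjusted p = 5.04e-05). Lpar1, a lysophosphatidic acid receptor also present in oligodendrocytes, had 39.6 and 36.4 CPM at P21 against 11.6 and 10.6 CPM in adult (1.78 ± 0.32). Hes5, a Notch target, rose by 1.59 ± 0.43 and Id4, an inhibitor of neuronal differentiation factors, by 0.78 ± 0.17. Of 5 cell cycle genes tested, Ccnd2, the cyclin of granule cell precursors, was higher (0.64 ± 0.18) and Mcm6, a replication helicase subunit, lower (-0.85 ± 0.18). Mki67, the proliferation marker, was too low to be tested, at 8.87 and 6.24 CPM at P21 and 0 and 0.818 CPM in adult. Of 17 Wnt and niche signalling genes tested, 8 were higher and 1 lower (median 0.70), with 2, 3, 4, 3, 10 and 9 higher when 1 section was left out. Id3, a BMP target, had 56.2 and 73.8 CPM at P21 against 22.2 and 16.4 CPM in adult (1.73 ± 0.34, adjusted p = 0.00231). Wnt5a, a Wnt ligand, rose by 1.85 ± 0.34 and Bmp6, a BMP ligand, by 2.55 ± 0.59. Wnt7b, a Wnt ligand of neurons, fell (-0.81 ± 0.17). Lost with 1 section left out were the calls of Lpar1 and Mcm6 (without P21 1), Wnt5a (without adult 2) and Wnt7b (without P21 2). So were those of Hes5, Ccnd2 and Bmp6 (without P21 1, P21 2 or adult 1). That of Id4 was lost without P21 2, adult 1 or adult 2. Fabp7 and Id3 kept their calls under every alternative tried.

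Genes of mature granule neurons moved the other way. None of the 20 granule genes outside the score was higher at P21 and 10 were lower, with a median of -0.59. With 1 section left out the count of lower genes was 7, 9, 12, 6, 12 and 12. Plk5 (chr10:80356459-80365489), a polo-like kinase of neurons, had 55.0 and 75.9 CPM at P21, 283 and 297 CPM in adult and 143 and 223 CPM in aged. Its P21 and adult values did not overlap (-2.19 ± 0.20, adjusted p = 9.49e-07). Lct (chr1:128284756-128328318) had 76.3 and 101 CPM at P21, 214 and 206 CPM in adult and 416 and 322 CPM in aged, so it was lowest at P21 and highest in aged (-1.27 ± 0.17, adjusted p = 5.59e-05 for P21 vs. adult). Glis3, a Krüppel-like transcription factor, had 36.7 and 37.4 CPM at P21 against 155 and 136 CPM in adult (-1.97 ± 0.23, adjusted p = 1.83e-05). Trpc6, a cation channel of granule cells, had 37.9 and 43.7 CPM at P21 against 102 and 108 CPM in adult (-1.39 ± 0.18, adjusted p = 5.77e-05). Its call was kept in 23 of 24 alternatives, over which its change ran from -1.71 to -0.63. The members were chosen by Prox1, C1ql2, Stxbp6 and Dsp, whose summed level was also lower at P21, and the part of purity of the spots in these falls was not tested. Among members at or below their section's median in Ttr, 7 granule genes were lower.

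Among receptors and channels single genes were called in both directions, and the summed level of each of 3 lists was lower at P21. GABA-A receptor subunit genes summed to 2432 and 2541 CPM at P21 against 3345 and 3430 CPM in adult (median change -0.42). Glutamate receptor genes summed to 5321 and 5456 CPM against 6663 and 6716 CPM (median -0.22), and potassium channel genes to 2888 and 2667 CPM against 3405 and 3260 CPM (median -0.20). In each list both P21 sections lay below both adult sections. Of 11 GABA-A receptor subunit genes tested, 1 was higher and 3 lower at P21. Gabra4, an alpha subunit, had 184 and 184 CPM at P21 against 309 and 304 CPM in adult (-0.74 ± 0.12, adjusted p = 0.000452). Gabra2, another alpha subunit, was also among the 3 that fell (-0.72 ± 0.16), while Gabrg3 rose (0.96 ± 0.28). Of 22 glutamate receptor genes tested, 3 were higher and 2 lower, and with 1 section left out 0, 1, 0, 0, 4 and 4 were higher and 1, 0, 1, 2, 2 and 2 lower. Grm4, a presynaptic metabotropic receptor, had 15.4 and 11.4 CPM at P21 against 0.963 and 2.45 CPM in adult (2.90 ± 0.65), and Grik1, a kainate receptor subunit, rose by 1.69 ± 0.48. The kainate receptor subunit Grik2 was among those that fell (-0.63 ± 0.15). Of 21 potassium channel genes tested, 3 were higher and 4 lower (2, 1, 3, 1, 3 and 3 higher and 5, 2, 3, 3, 4 and 4 lower with 1 section left out). Kcnj3 (-0.76 ± 0.12) and Kcnj6 (-0.61 ± 0.13), which encode subunits of G protein-gated channels, and Kcnd3, an A-type channel (-0.82 ± 0.14), fell, and Kcnip1, an A-type channel partner known from interneurons, rose (2.15 ± 0.40). Calls lost with 1 section left out were those of Gabra2 (without P21 1 or adult 2), Gabrg3 (without P21 1, P21 2, adult 1 or adult 2), Grm4 (without P21 1, adult 1 or adult 2), Grik1 (without P21 1, P21 2, adult 1 or adult 2), Grik2 (without P21 1, P21 2 or adult 1), Kcnj6 (without P21 2 or adult 2) and Kcnip1 (without P21 1).

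Secreted signals moved in both directions. Of 15 neuropeptide and trophic factor genes tested, 4 were higher and 3 lower at P21, with 4, 3, 5, 2, 7 and 7 higher and 2, 3, 3, 3, 4 and 4 lower when 1 section was left out. Tac2, neurokinin B, had 73.9 and 78.0 CPM at P21 against 4.82 and 7.36 CPM in adult (3.59 ± 0.56, adjusted p = 0.000336), and Fgf1, a fibroblast growth factor, had 49.1 and 40.5 CPM at P21 against 14.4 and 9.82 CPM in adult (1.92 ± 0.32, adjusted p = 0.000586). Nptx1, a secreted pentraxin that clusters AMPA receptors, had 353 and 359.7 CPM at P21 against 789.9 and 785 CPM in adult (-1.14 ± 0.14, adjusted p = 3.29e-05), and Scg2, a granin of dense core vesicles, had 179 and 186 CPM at P21 against 312 and 338 CPM in adult (-0.84 ± 0.12, adjusted p = 0.000158). The 2 ages did not overlap in these 4 genes, as in 59.3% of all genes tested. Of 16 immediate early genes tested, which neurons switch on within minutes of activity, none was higher and 2 were lower, Bdnf (-0.82 ± 0.15), the neurotrophin, and Btg2 (-0.67 ± 0.21). Of 12 corticosteroid receptor and target genes tested, 3 were higher and 1 lower. Tsc22d3 (1.19 ± 0.24), a glucocorticoid-induced leucine zipper, and the metallothioneins Mt2 (1.11 ± 0.22) and Mt1 (0.72 ± 0.16) rose, and Zbtb16, a zinc finger repressor, fell (-0.93 ± 0.26). Leaving out any 1 of P21 1, P21 2, adult 1 and adult 2 lost the call of Btg2. Lost too were those of Tsc22d3 (without adult 1) and of Mt2 and Mt1 (without P21 1 or adult 2). That of Zbtb16 was lost without P21 1, P21 2 or adult 1.

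Axon growth genes and contactins moved in part. Of 20 mossy fibre and axon growth genes tested, 9 were higher and 3 lower (median 0.19), with 5, 4, 7, 4, 9 and 9 higher when 1 section was left out. Gap43, a growth cone protein, had 227 and 238 CPM at P21 against 74.2 and 58.9 CPM in adult (1.81 ± 0.21, adjusted p = 1.63e-05). Robo1, a Slit receptor, had 81.0 and 87.3 CPM at P21 against 32.8 and 26.2 CPM in adult (1.51 ± 0.24, adjusted p = 0.000324), and Sema6a, a guidance semaphorin, had 59.7 and 43.7 CPM at P21 against 12.5 and 12.3 CPM in adult (2.08 ± 0.33, adjusted p = 0.000379). Slc30a3, which loads zinc into mossy fibre vesicles, fell with 238 and 235 CPM at P21 against 422 and 411 CPM in adult (-0.82 ± 0.14, adjusted p = 0.000879). The other lower genes were Rtn4r (-0.62 ± 0.12; call lost without P21 1) and Rtn4rl1 (-0.78 ± 0.15; call lost without adult 2), receptors of the Nogo family, and 8 of the 20 genes were not called. Summed, the list stood at 3792 and 3995 CPM at P21 and at 3753 and 3825 CPM in adult, with the 2 ages overlapping. Of 10 contactin family genes tested, 4 were higher and none lower, Cntn6 (2.15 ± 0.58), Cntnap2 (1.68 ± 0.50), Cntn4 (1.10 ± 0.35) and Cntn2 (1.0 ± 0.32). Summed, contactin family genes stood at 930 and 901 CPM at P21 and at 962 and 922 CPM in adult. These contactin calls were not stable, with 0, 0, 1, 0, 4 and 4 higher when 1 section was left out.

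Markers of other cells differed too, and give a measure of what the spots held besides granule neurons. Of 12 mature oligodendrocyte genes tested, 11 were higher at P21 and none lower (median 2.42), and the count was 11 whichever section was left out. Summed, they stood at 10619 and 8213 CPM at P21, 2139 and 1696 CPM in adult and 1784 and 1278 CPM in aged. Mbp, the most abundant, had 3417 and 2921 CPM at P21, 895 and 768 CPM in adult and 668 and 604 CPM in aged (1.93 ± 0.12, adjusted p = 1.99e-08). Mag, a myelin adhesion protein, had 418 and 309.8 CPM at P21 against 53.0 and 43.4 CPM in adult (2.94 ± 0.19), and Cldn11, the tight junction protein of myelin, had 357 and 258 CPM at P21 against 46.2 and 39.3 CPM in adult (2.87 ± 0.20). Newly formed oligodendrocyte genes had 6 of 8 higher and none lower, and oligodendrocyte precursor genes 5 of 7. Gpr17, a receptor of differentiating precursors, had 46.7 and 55.1 CPM at P21 against 2.89 and 4.09 CPM in adult (3.80 ± 0.40, adjusted p = 6.31e-06). Tmem163, a zinc transporter, had 93.5 and 82.1 CPM at P21, 16.4 and 13.9 CPM in adult and 3.11 and 1.58 CPM in aged (2.55 ± 0.25). Sox10, a transcription factor of the whole lineage, had 40.8 and 41.6 CPM at P21 against 8.67 and 9.0 CPM in adult (2.21 ± 0.32), and Pdgfra, the receptor of precursors, rose by 1.81 ± 0.39. With 1 section left out 3, 5, 4, 4, 6 and 6 newly formed and 2, 3, 3, 3, 6 and 6 precursor genes were higher. Genes of all stages of the lineage were thus higher at P21.

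Of 12 astrocyte genes tested, 7 were higher at P21 and none lower (median 0.94; 4, 5, 6, 2, 8 and 8 with 1 section left out). Summed, they stood at 2899 and 3000.1 CPM at P21, 1849 and 1573 CPM in adult and 3399 and 2259 CPM in aged. Slc1a3, a glutamate transporter, had 306 and 309 CPM at P21 against 142 and 124 CPM in adult (1.21 ± 0.16, adjusted p = 6.11e-05), and Slc1a2, the other main one and the most abundant gene of the list, had 1177 and 1227 CPM at P21 against 722 and 661 CPM in adult (0.80 ± 0.16). Aldoc, aldolase C, rose by 0.92 ± 0.16 and Ntsr2, a neurotensin receptor, by 1.38 ± 0.28. Of 10 GABAergic interneuron genes tested, 5 were higher and 1 lower, and 1, 3, 4, 1, 8 and 8 were higher with 1 section left out. Cnr1, the cannabinoid receptor of basket cells, had 125 and 201 CPM at P21 against 66.5 and 45.8 CPM in adult (1.51 ± 0.25), Gad2, a GABA-making enzyme, rose by 1.04 ± 0.26, and Adarb2, a gene of caudal interneurons, fell (-0.99 ± 0.18). Calb2, calretinin, found in hilar mossy cells and in young granule neurons, had 229.5 and 214 CPM at P21, 20.2 and 19.6 CPM in adult and 39.4 and 7.91 CPM in aged (3.48 ± 0.34, adjusted p = 3.38e-06), and Ociad2, also of the mossy cell list, rose by 1.04 ± 0.25. None of 7 homeostatic microglia genes and none of 9 MHC class I and interferon genes was called. Of 10 disease-associated microglia genes 3 were higher, Cd9 (2.03 ± 0.28), Lpl (1.62 ± 0.36) and Apoe (0.78 ± 0.16), which other glia also express. Of the CA1 genes that chose the CA1 spots, Wfs1 (1.16 ± 0.24) and Fibcd1 (0.77 ± 0.25) were higher and of the CA3 ones Npy2r was lower (-1.05 ± 0.18). Summed, the CA1 genes stood at 122 and 162 CPM at P21 against 75.1 and 76.9 CPM in adult. Of the CA1 genes outside that score 1 of 3 was higher, Ccn3 (1.95 ± 0.43), and none of 5 such CA3 genes was called. Calls in these groups that were lost with a section left out were those of Slc1a2 (without adult 2), Ntsr2 (without adult 2), Gad2 (without P21 1 or adult 2), Ociad2 (without P21 1 or adult 2), Lpl (without P21 2 or adult 1), Apoe (without P21 1 or adult 2), Wfs1 (without P21 2 or adult 2), Fibcd1 (without P21 1, P21 2, adult 1 or adult 2) and Ccn3 (without P21 2 or adult 2).

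Some blood, vessel and border genes were also higher at P21. Hbb-bs, a beta-globin of erythrocytes, had 796 and 667 CPM at P21, 67.4 and 27.8 CPM in adult and 43.5 and 23.7 CPM in aged (3.98 ± 0.24, adjusted p = 1.99e-08), and all 3 erythrocyte genes tested were higher (2 without P21 1). Summed, erythrocyte genes stood at 1228 and 985 CPM at P21, 122 and 44.2 CPM in adult and 71.5 and 48.6 CPM in aged. Of 10 endothelial and pericyte genes 3 were higher, led by Cldn5, the endothelial tight junction protein, with 44.4 and 58.2 CPM at P21 against 17.3 and 16.4 CPM in adult (1.57 ± 0.28, adjusted p = 0.000829), and 1, 2, 3, 1, 5 and 5 were higher with 1 section left out. Of 4 meningeal genes 3 were higher, among them Col1a2, a fibrillar collagen, with 21.9 and 32.2 CPM at P21 against 3.85 and 2.45 CPM in adult (3.05 ± 0.58), and 2, 2, 3, 1, 4 and 4 with 1 section left out. Of 6 choroid plexus genes 3 were higher, and 0, 2, 2, 1, 4 and 4 with 1 section left out. Summed, these stood at 2883 and 1553 CPM at P21, 172 and 83.5 CPM in adult and 2422 and 40.3 CPM in aged. Ttr had 2778 and 1489 CPM at P21, 144 and 63.8 CPM in adult and 2339 and 15.0 CPM in aged (4.38 ± 1.07), and its call was lost without P21 1 or adult 2 and in DESeq2, which called none of the choroid plexus genes. Members at P21 thus held more RNA of erythrocyte and choroid plexus genes than adult members, and its part in the other results was not tested. Among members at or below their section's median in Ttr, 429 genes were higher and 237 lower at P21. Of 13 immature granule genes tested there, 11 were higher.

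Among the remaining genes with the largest changes, Gal, the neuropeptide galanin, had 22.5 and 28.1 CPM at P21 against 2.89 and 0.818 CPM in adult (3.74 ± 0.57, adjusted p = 0.000249). Gsn, gelsolin, an actin-severing protein of oligodendrocytes, had 114 and 73.8 CPM at P21 against 11.6 and 4.09 CPM in adult (3.66 ± 0.35, adjusted p = 2.67e-06). Gpr151, an orphan receptor of habenular neurons, had 30.2 and 21.8 CPM at P21 against 0 and 4.09 CPM in adult (3.54 ± 0.69), a call lost without P21 1. Eln, elastin, stood at 24.8 and 20.8 CPM at P21 and at 0.963 and 1.64 CPM in adult, with too few adult UMIs for a fold. The largest falls were in Gucy2g, a receptor guanylate cyclase (2.96 and 6.24 CPM at P21 against 30.8 and 38.5 CPM in adult; -3.03 ± 0.39, adjusted p = 5.55e-05), Acvr1c, an activin receptor (8.87 and 8.32 CPM at P21 against 40.5 and 54.8 CPM in adult; -2.46 ± 0.35, adjusted p = 0.000134), and Muc3a, a mucin (10.6 and 16.6 CPM at P21 against 66.5 and 73.6 CPM in adult; -2.43 ± 0.29, adjusted p = 2.86e-05). Arsj, an arylsulfatase, had 5.32 and 7.28 CPM at P21 against 26 and 33.5 CPM in adult (-2.29 ± 0.37), and Ptgs2, the inducible cyclooxygenase, had 10.1 and 9.36 CPM at P21 against 37.6 and 50.7 CPM in adult (-2.17 ± 0.35). These 5 calls held under every alternative tried. Onecut1 (-2.08 ± 0.39), Lnp1 (-2.08 ± 0.42) and Stra6, the retinol carrier receptor (-1.99 ± 0.39), also fell, the calls of Onecut1 and Lnp1 being lost without P21 1.

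**Figure D3:**
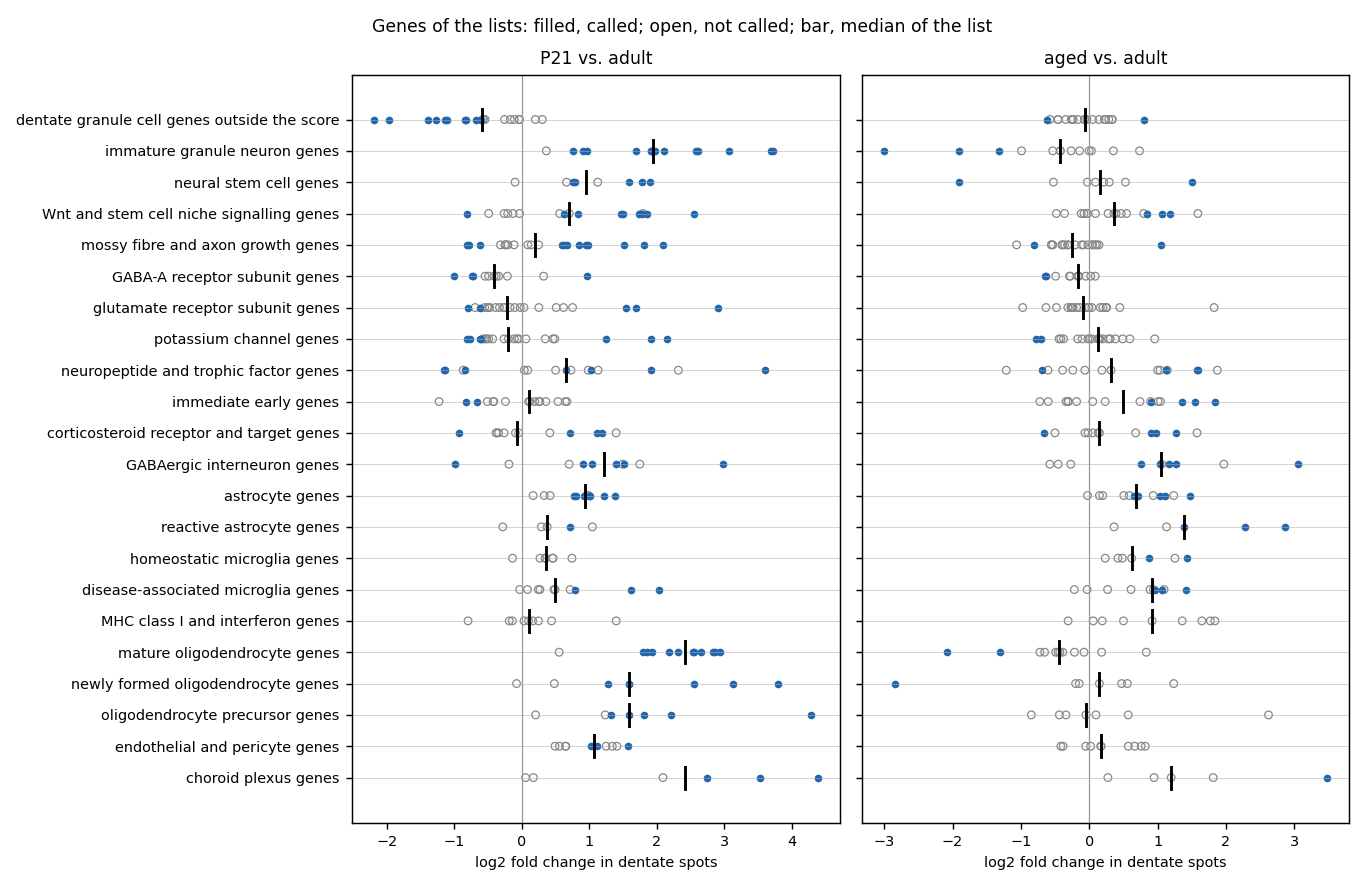
Log2 change of each tested gene of 22 gene groups in members, with P21 vs. adult on the left and aged vs. adult on the right; filled points are called genes, open points are not, and the bar marks the group's median. Immature granule and mature oligodendrocyte genes lie to the right of 0 in P21 vs. adult, and reactive astrocyte genes lie to the right in aged vs. adult.

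Comparing aged with adult members, 345 of 10502 genes tested (3.29%) were higher and 288 (2.74%) lower, with a median change of 0.01. An unadjusted p under 0.05 was reached by 2525 genes, and the aged and adult sections did not overlap in 53.1% of all genes tested. Aged members had more RNA of reactive astrocytes, of 4 of 16 immediate early genes and of Ighm, and less of 3 of 13 immature granule neuron genes. These counts rested strongly on the adult sections. Without P21 1, P21 2, adult 1, adult 2, aged 1 or aged 2, 269, 215, 97, 59, 417 and 740 genes were higher and 229, 233, 104, 58, 412 and 494 lower. Both comparisons used the same adult sections and are not independent of each other, and in aged vs. adult slide version cannot be told apart from age.

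Of 13 immature granule neuron genes tested in aged vs. adult, none was higher and 3 were lower (median -0.42; 3, 3, 2, 2, 5 and 4 lower with 1 section left out). Dcx had 34.7 and 28.6 CPM in adult against 9.33 and 7.91 CPM in aged, and both aged sections lay below both adult ones (-1.91 ± 0.32, adjusted p = 0.00192). Igfbpl1 had 15.4 and 4.91 CPM in adult against 0 and 1.58 CPM in aged, with 0 and 4 UMIs in the aged sections (-3.01 ± 0.72). Dpysl3 had 19.3 and 27.8 CPM in adult against 9.33 and 9.49 CPM in aged (-1.33 ± 0.30, adjusted p = 0.0120). The call of Dcx held with every section left out, and in DESeq2 without its independent filtering, which did not call Igfbpl1 (adjusted p = 0.0698) or Dpysl3 (adjusted p = 0.0578), and it missed the threshold in the stricter test against 1.5-fold. The other calls were lost for Igfbpl1 (without adult 1) and Dpysl3 (without adult 2). In neural stem cell genes, 1 of 8 was higher and 1 lower. Sox2, a stem cell and astrocyte factor, had 15.4 and 10.6 CPM in adult against 59.1 and 23.3 CPM in aged (1.5 ± 0.41), and Lpar1 had 11.6 and 10.6 CPM in adult against 4.14 and 2.37 CPM in aged (-1.91 ± 0.49), and the calls were lost for Sox2 (without P21 2, adult 1, adult 2 or aged 1) and Lpar1 (without P21 1, adult 1, adult 2 or aged 2). None of 5 cell cycle genes was called.

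Of the 20 mature granule neuron genes outside the score, 1 was higher and 1 lower in aged vs. adult, with a median of -0.07. Of all genes tested, 3.29% were higher and 2.74% lower. Counts this small do not set the list apart from all genes. Lct had 214 and 206 CPM in adult against 416 and 322 CPM in aged (0.79 ± 0.14, adjusted p = 0.00307), with no overlap, and its call was lost without adult 2. Plk5 had 283 and 297 CPM in adult against 143 and 223 CPM in aged (-0.62 ± 0.17), a call lost without adult 1, adult 2 or aged 1. Of the Wnt and niche signalling genes 3 of 17 were higher. Ctnnb1, beta-catenin, had 126 and 134 CPM in adult against 342 and 258 CPM in aged (1.18 ± 0.15, adjusted p = 0.000165), Id2, an inhibitor of differentiation factors, rose by 1.07 ± 0.23 and Dkk3, a secreted Dickkopf protein, by 0.85 ± 0.19, and the calls of Id2 and Dkk3 were lost without adult 1 or adult 2.

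Immediate early genes had 4 of 16 tested higher and none lower (median 0.49), with 4, 3, 4, 1, 4 and 6 higher when 1 section was left out. Arc, which controls AMPA receptor removal, had 52.0 and 32.7 CPM in adult against 216 and 102 CPM in aged (1.84 ± 0.30, adjusted p = 0.00167). Egr1, a transcription factor, had 57.8 and 31.9 CPM in adult against 179 and 93.7 CPM in aged (1.54 ± 0.29, adjusted p = 0.00359). Fosb, an AP-1 subunit, rose by 1.35 ± 0.36 and Egr3 by 0.90 ± 0.19. Both aged sections lay above both adult sections for Arc and Egr1, where 53.1% of all genes tested had no overlap in one direction or the other, and aged 1 lay above aged 2. The calls of Egr1 (without adult 2) and Fosb (without P21 2 or adult 2) were lost with 1 section left out. So was that of Egr3 (without adult 1 or adult 2). Among neuropeptide and trophic factor genes, 3 of 15 were higher and 1 lower. Vegfa, the vascular growth factor, had 19.3 and 21.3 CPM in adult against 82.9 and 48.2 CPM in aged (1.59 ± 0.28, adjusted p = 0.00264), and Npy, neuropeptide Y of hilar interneurons, had 179 and 61.4 CPM in adult against 545 and 193 CPM in aged (1.58 ± 0.38). Vgf, a secreted granin-like peptide, rose by 1.12 ± 0.21, and Ntf3, neurotrophin 3, fell (-0.70 ± 0.19). The calls lost with a section left out were those of Npy (without adult 2), Vgf (without adult 2) and Ntf3 (without P21 1, P21 2, adult 1, adult 2 or aged 1). Of 12 corticosteroid receptor and target genes, 3 were higher and 1 lower. Mt1 (0.97 ± 0.16), Mt2 (1.26 ± 0.22) and Zbtb16 (0.90 ± 0.20) rose, and Nr3c1, the glucocorticoid receptor, fell (-0.66 ± 0.16). Mt2 and Zbtb16 lost their calls without adult 2, and Nr3c1 without adult 1, adult 2 or aged 1.

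Receptor and channel genes fell in single cases. Of 11 GABA-A receptor subunit genes none was higher and 2 were lower, among them Gabrd, the extrasynaptic delta subunit, with 118 and 143 CPM in adult against 68.4 and 92.9 CPM in aged (-0.65 ± 0.18, adjusted p = 0.0301). Of 22 glutamate receptor genes none was called, among them Gria1, an AMPA receptor subunit, with 1606 and 1787 CPM in adult against 1840.3 and 2052 CPM in aged (0.20 ± 0.11). Of 21 potassium channel genes, none was higher and 2 were lower, Kcna4 (-0.78 ± 0.16) and Kcnj9 (-0.70 ± 0.16). Nectin1, an adhesion protein of mossy fibre synapses, fell (-0.81 ± 0.18) and Nrp1, a semaphorin receptor, rose (1.05 ± 0.20), the only calls among 20 axon growth genes. Of 10 contactin family genes none was higher and 3 were lower, among them Cntnap1 (-0.63 ± 0.12) and Cntnap5a (-0.71 ± 0.22), and Cntnap2 stood at 2.89 and 9.0 CPM in adult against 1.04 and 0 CPM in aged. Calls lost with a section left out were those of Gabrd (without P21 2, adult 1, adult 2 or aged 1), Kcna4 (without adult 1 or adult 2), Kcnj9 (without adult 1 or aged 1), Nectin1 (without adult 1 or adult 2), Nrp1 (without adult 1 or adult 2), Cntnap1 (without adult 1 or adult 2), Cntnap5a (without adult 1, adult 2 or aged 1) and Cntnap2 (without P21 1, P21 2, adult 2 or aged 2). Pan-neuronal genes had 3 of 10 higher, with Syt1, the calcium sensor of synaptic vesicles, at 141 and 116 CPM in adult against 354 and 272 CPM in aged (1.27 ± 0.15, adjusted p = 0.000105) and Camk2a, a kinase of excitatory synapses, at 1387 and 1194 CPM in adult against 2397 and 2311 CPM in aged (0.87 ± 0.11, adjusted p = 0.000214). Nrgn, neurogranin, rose by 0.62 ± 0.13, a call lost without adult 1, adult 2 or aged 1.

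Astrocyte and microglia genes rose in part in aged members. Of 5 reactive astrocyte genes tested, 3 were higher and none lower (median 1.39; 3, 3, 3, 3, 3 and 5 with 1 section left out). Gfap (chr11:102887336-102900912) had 133 and 193 CPM at P21, 98.3 and 97.4 CPM in adult and 579 and 383 CPM in aged, and the aged sections did not overlap with the others (2.28 ± 0.19, adjusted p = 3.25e-06). C4b (chr17:34728380-34743882), complement component 4B, had 7.69 and 11.4 CPM at P21, 15.4 and 7.36 CPM in adult and 106 and 65.2 CPM in aged (2.86 ± 0.33, adjusted p = 8.04e-05). Serpina3n, a protease inhibitor, had 19.3 and 24.5 CPM in adult against 64.2 and 54.2 CPM in aged (1.39 ± 0.24, adjusted p = 0.00209). The calls of Gfap and C4b held under every alternative that gave them an adjusted p. Of 12 astrocyte genes 5 were higher (median 0.68; 4, 3, 2, 1, 2 and 10 with 1 section left out), led by Aldoc with 281 and 220.1 CPM in adult against 649 and 440.3 CPM in aged (1.11 ± 0.16, adjusted p = 0.000558) and Gjb6, connexin 30, with 27.9 and 17.2 CPM in adult against 77.7 and 52.6 CPM in aged (1.48 ± 0.27). Slc1a2 had 722 and 661 CPM in adult against 1409 and 865 CPM in aged (0.71 ± 0.16). Among the disease-associated microglia genes 3 of 10 were higher (median 0.91; 3, 3, 2, 1, 3 and 6 with 1 section left out). Apoe, the apolipoprotein E that astrocytes and microglia make, had 315 and 238 CPM in adult against 860.0 and 614 CPM in aged (1.41 ± 0.16, adjusted p = 6.75e-05), and Ctsd (0.96 ± 0.16) and Ctss (1.06 ± 0.23), lysosomal proteases, rose as well. Homeostatic microglia genes had 2 of 7 higher, among them Csf1r, the receptor on which microglia depend (1.42 ± 0.34). None of 9 MHC class I and interferon genes was called, and 4 were higher without aged 2. B2m, the light chain of MHC class I, had 106 and 85.9 CPM in adult against 168 and 112 CPM in aged (0.50 ± 0.19). Calls lost with a section left out were those of Gjb6 (without adult 2), Slc1a2 (without adult 1, adult 2 or aged 1), Ctsd (without adult 2), Ctss (without adult 1 or adult 2) and Csf1r (without adult 1 or adult 2).

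Ighm (chr12:113418558-113422730), the constant region of the IgM heavy chain, had 14.2 and 22.9 CPM at P21, 48.2 and 85.9 CPM in adult and 162 and 152 CPM in aged. It increased from age to age without overlap (-1.95 ± 0.29, adjusted p = 0.000197 for P21 vs. adult and 1.20 ± 0.21, adjusted p = 0.00209 for aged vs. adult), and the aged call was lost without adult 1. It was the only gene of 11 in the T and B cell list that could be tested, with Cd3e, Cd79a, Ms4a1 and Igkc at or near 0 in these spots. Lct, Ighm, Opalin and Tmem163 were among the genes that the study itself named for the DG in both comparisons from these sections. Nrp1 was listed by the study for the DG among genes of enriched terms at P21, but not in aged. All 5 were called in both comparisons, 3 higher and 2 lower in each, which is not independent evidence of a direction.

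Oligodendrocyte genes were lower in aged members only in part. Of 12 mature oligodendrocyte genes none was higher and 2 were lower (median -0.44; 2, 2, 1, 0, 5 and 1 with 1 section left out). Opalin, a late myelin membrane protein, had 21.2 and 25.4 CPM in adult against 6.22 and 5.14 CPM in aged (-2.08 ± 0.38, adjusted p = 0.00311), and Fa2h, which hydroxylates myelin lipids, fell (-1.30 ± 0.31). Mbp had 895 and 768 CPM in adult against 668 and 604 CPM in aged and was not called (-0.39 ± 0.12). Tmem163 had 16.4 and 13.9 CPM in adult against 3.11 and 1.58 CPM in aged (-2.85 ± 0.47, adjusted p = 0.00167), the only call among 7 newly formed oligodendrocyte genes, and none of 7 precursor genes was called. The call of Opalin was lost without adult 2, and that of Fa2h without adult 1, adult 2 or aged 2. Of 10 GABAergic interneuron genes 5 were higher (median 1.04), with 3, 3, 3, 0, 3 and 7 higher when 1 section was left out. Gad1 had 43.4 and 38.5 CPM in adult against 93.3 and 77.1 CPM in aged (1.03 ± 0.19), Gad2 rose by 1.17 ± 0.25 and Cnr1 by 1.27 ± 0.25, and all 3 calls were lost without adult 2.

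Signal of border tissue was uneven between the aged sections. Ttr had 144 and 63.8 CPM in adult against 2339 and 15.0 CPM in aged, so the groups overlapped although the gene was called (3.48 ± 1.05, adjusted p = 0.0481). Without aged 1 the change was -2.75 with an adjusted p of 4.27e-06 in the same test, a reversal that rests on that section. It was the only call among 5 choroid plexus genes. Among members at or below their section's median in Ttr, 315 genes were higher and 260 lower in aged. None of 2 erythrocyte, 10 endothelial and 3 meningeal genes was called in aged vs. adult, nor any of 3 hilar mossy cell genes or 7 CA1 genes. The CA3 gene Npy2r was lower (-0.89 ± 0.18), and of the CA3 genes outside the CA3 score Bok (1.20 ± 0.25) and Cdh24 (1.6 ± 0.47) were higher. These calls were lost for Npy2r (without adult 1), Bok (without adult 1 or adult 2) and Cdh24 (without P21 1, P21 2, adult 1 or adult 2), and DESeq2 without independent filtering called neither Bok nor Cdh24. Summed, the genes that chose CA3 spots stood at 325 and 288 CPM in adult and at 268 and 300.4 CPM in aged, with overlapping groups.

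Of the other genes, Pde1b, a calcium-regulated phosphodiesterase of cyclic nucleotides, had the largest fall, with 249.5 and 254 CPM in adult against 63.2 and 47.0 CPM in aged (-2.25 ± 0.16, adjusted p = 3.21e-07). Both aged sections lay below both adult sections, which the rule for naming the largest falls required. The call of Pde1b held under every alternative tried. Nhlh1, a transcription factor of young neurons, had 33.7 and 32.7 CPM in adult against 11.4 and 9.09 CPM in aged (-1.75 ± 0.32). Wnk4, a kinase of ion transport (-1.68 ± 0.37), March1, a ubiquitin ligase (-1.61 ± 0.29), Olfr61, an olfactory receptor gene (-1.58 ± 0.38), Pllp, plasmolipin of myelin (-1.47 ± 0.35), Col22a1, a collagen (-1.46 ± 0.41), and Glra2, a glycine receptor subunit (-1.43 ± 0.33), also fell. The largest rises outside the lists were Rasl11a, a small GTPase (9.63 and 4.91 CPM in adult against 37.3 and 21.7 CPM in aged; 1.94 ± 0.41), Atg12, an autophagy conjugation protein (6.74 and 9.0 CPM in adult against 34.2 and 22.9 CPM in aged; 1.75 ± 0.37), and Tmem63b, a mechanosensitive channel (10.6 and 12.3 CPM in adult against 37.3 and 38.3 CPM in aged; 1.72 ± 0.30). Sat1, which breaks down polyamines (1.69 ± 0.31), Laptm5, a lysosomal protein of immune cells (1.62 ± 0.41), and Polr2c, an RNA polymerase II subunit (1.62 ± 0.31), followed. Calls lost with 1 section left out were those of Wnk4 (without adult 1 or adult 2), Olfr61 (without adult 1 or adult 2), Pllp (without adult 1 or aged 2), Col22a1 (without adult 1, adult 2 or aged 2), Glra2 (without adult 2), Rasl11a (without adult 2), Atg12 (without adult 1 or adult 2), Laptm5 (without adult 2) and Polr2c (without adult 2).

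**Figure D4:**
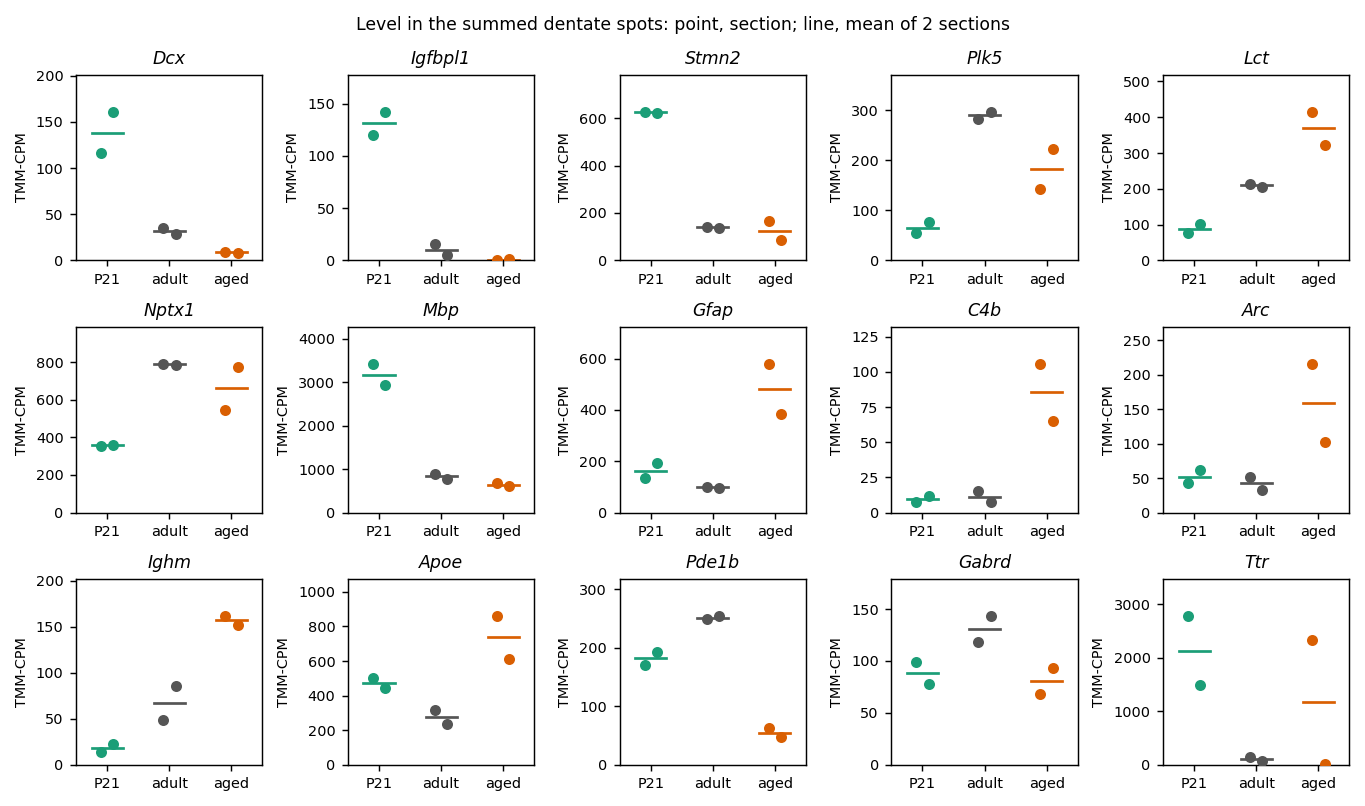
Level of 15 genes in the dentate spots of each section, in CPM after TMM scaling; points are sections, and the line is the mean of the 2 sections of an age. Dcx and Igfbpl1 decrease from P21 to aged and Ighm increases, Gfap and C4b are highest in aged, and the 2 aged sections lie far apart for Ttr.

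Whether a change with age differed between the granule layer and the pyramidal layers was tested with the section as a block, as the log2 change in dentate spots minus the mean of those in CA1 and CA3 spots. Score genes of all 3 sets were left out. In P21 vs. adult, 11045 genes were tested and the difference was called above 0 for 228 (2.06%) and below 0 for 195 (1.77%), with 1781 at an unadjusted p under 0.05. In aged vs. adult, 10982 genes were tested and 47 (0.428%) were called above and 31 (0.282%) below, with 1224 at an unadjusted p under 0.05. Without P21 1, P21 2, adult 1, adult 2, aged 1 or aged 2, the counts above 0 in P21 vs. adult were 82, 153, 84, 10, 334 and 325, and those below 0 were 47, 141, 85, 14, 261 and 272. For aged vs. adult they were 46, 50, 1, 3, 39 and 192 above 0, and 33, 29, 1, 1, 24 and 88 below 0. The aged differences therefore rested on both adult sections. In the next paragraphs, CPM values of genes in this fit are scaled over its 18 sums. Values of score genes and sums of gene lists there are plain CPM, without TMM scaling.

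Several genes of the immature granule, axon growth and pan-neuronal lists changed more in dentate spots than in CA1 and CA3 spots between P21 and adult. Immature granule genes had 6 of 14 above and 1 below. The mossy fibre and axon growth genes, which include Gap43, had 2 of 20 above and 2 below, with a median difference of 0.01. Stmn2 differed by 1.82 ± 0.19, adjusted p = 7.70e-07, with 583 and 583 CPM at P21 and 136 and 129 CPM in adult dentate spots against 992 and 1202, then 765 and 796 CPM in CA1 and 2063 and 1824, then 1655 and 1836 CPM in CA3 spots. Dpysl3 differed by 1.96 ± 0.26, adjusted p = 3.50e-05, Nnat by 1.58 ± 0.25, adjusted p = 0.000398 and Gap43 by 1.49 ± 0.21, adjusted p = 7.16e-05. Dcx differed by 1.38 ± 0.33, adjusted p = 0.0121, with 18.7 and 13.3 CPM at P21 against 13.6 and 11.5 CPM in adult CA1 spots, and 32.7 and 35.5 against 21.2 and 15.9 CPM in CA3 spots. Dcx thus also stood higher at P21 in CA3 spots. The steep rise of Stmn2, Dpysl3, Nnat and Gap43 toward P21 was thus larger in dentate spots than in CA1 and CA3 spots. Stmn2, a gene of the pan-neuronal list, stood higher in the spots next to the members than in members. There it had 1079 and 1169 CPM at P21 and 572 and 721 CPM in adult, without TMM scaling. The part of purity of the members in these differences was not tested. Granule genes outside the score had none above and 9 of 20 below (median -0.87), among them Plk5 (-2.31 ± 0.51, adjusted p = 0.00732) and Lct (-1.30 ± 0.33, adjusted p = 0.0223). Nptx1 (-1.05 ± 0.17, adjusted p = 0.000398) was also lower in the granule layer relative to the pyramidal layers at P21. Mature oligodendrocyte genes had 9 of 12 above, with Mag at 1.42 ± 0.25, adjusted p = 0.000696 and Mbp at 0.78 ± 0.16, adjusted p = 0.00417. Cnr1 of the interneuron list differed by 1.86 ± 0.31, adjusted p = 0.000505. With a section left out, calls were lost for Nnat (without adult 2), Gap43 (without adult 2), Dcx (without P21 2, adult 1 or adult 2), Plk5 (without P21 1 or adult 2), Lct (without P21 1, adult 1 or adult 2), Mag (without adult 2), Mbp (without adult 1 or adult 2) and Cnr1 (without adult 2). Among the top 0.5% of spots in place of 1%, only 1 gene was called above and 2 below.

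By the rule for named genes, the largest differences above 0 were those of Vash2, an enzyme that trims tubulin (3.41 ± 0.89, adjusted p = 0.0247), Cd24a, a surface protein of young neurons (2.78 ± 0.58, adjusted p = 0.00426), Fam163a (2.65 ± 0.64, adjusted p = 0.0144), Sema4g, a semaphorin (2.49 ± 0.49, adjusted p = 0.00243), and Syt2, a synaptotagmin (2.43 ± 0.66, adjusted p = 0.0322). Below 0 were Arsj (-4.56 ± 1.30, adjusted p = 0.0416), Rph3al, a Rab effector of secretory vesicles (-4.45 ± 0.88, adjusted p = 0.00251), Galns, a lysosomal sulfatase (-2.52 ± 0.57, adjusted p = 0.00807), Plk5, and Islr (-2.21 ± 0.65, adjusted p = 0.0470). Arsj had no UMI in adult CA1 spots, and Rph3al had 6.22 and 13.3 CPM at P21 and 0 and 2.08 CPM in adult CA1 spots. Each of Arsj, Rph3al and Islr was below the filter on low counts in CA1 and CA3 spots alike. Their differences therefore set the dentate change against counts near the floor, and a difference between layers was not shown for them. Vash2, Arsj, Rph3al, Galns, Plk5 and Islr were below the filter on low counts in CA1 spots alone, and Cd24a, Arsj, Rph3al and Islr in CA3 spots alone, so the sizes of these differences depend on the prior count of the fit. Plk5 had 51.1 and 71.1 CPM at P21 and 270.4 and 284 CPM in adult dentate spots, against 4.67 and 6.64, then 6.79 and 3.13 CPM in CA1 and 12.9 and 13.8, then 22.6 and 4.33 CPM in CA3. Its change was thus seen in the granule layer and not in CA1, where it stood at a few CPM at both ages. With a section left out, calls were lost for Vash2 (without P21 1, adult 1 or adult 2), Cd24a (without adult 2), Fam163a (without P21 2 or adult 2), Sema4g (without P21 1, adult 1 or adult 2), Syt2 (without P21 1, P21 2, adult 1 or adult 2), Arsj (without P21 1, P21 2, adult 1 or adult 2), Rph3al (without adult 1), Galns (without P21 1, adult 1 or adult 2) and Islr (without P21 1, adult 1 or adult 2).

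The largest differences above 0 for aged vs. adult were those of Grm2, a presynaptic glutamate receptor of mossy fibres (2.68 ± 0.43, adjusted p = 0.00199), C1ql3, a synaptic organiser (2.26 ± 0.25, adjusted p = 5.28e-06), Cemip, a hyaluronan-degrading protein (1.85 ± 0.33, adjusted p = 0.00499), Cadps2, a vesicle priming factor (1.77 ± 0.32, adjusted p = 0.00513), and Galnt13, a glycosyltransferase (1.5 ± 0.35, adjusted p = 0.0442). Grm2 had 219.8 and 203 CPM in adult and 160.4 and 199 CPM in aged dentate spots. In CA1 it went from 9.06 and 8.33 to 0.713 and 1.39 CPM and in CA3 from 36.7 and 11.5 to 2.21 and 3.66 CPM, so most of its difference lay in the pyramidal spots. C1ql3 had 427 and 448 CPM in adult and 464 and 615 CPM in aged dentate spots, 81.5 and 139, then 47.1 and 71.6 CPM in CA1, and 79.2 and 49.1, then 11.8 and 5.49 CPM in CA3. The score gene C1ql2, left out of this fit and given in plain CPM, also stood lower in aged pyramidal spots. It stood at 16.6 and 7.12 CPM in adult and 3.47 and 4.10 CPM in aged CA1 spots. In CA3 it stood at 44.2 and 32.4, then 2.79 and 6.90 CPM. All 3 are granule cell genes, and the part of granule cell signal reaching the adult pyramidal spots was not tested.

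Below 0 in aged vs. adult were Fosl2, an AP-1 subunit (-2.13 ± 0.33, adjusted p = 0.00189), Egr4, an immediate early transcription factor (-1.87 ± 0.28, adjusted p = 0.00183), Dcx (-1.70 ± 0.38, adjusted p = 0.0399), Tnfrsf25, a death receptor (-1.28 ± 0.31, adjusted p = 0.0451), and Mpp3, a synaptic scaffold protein (-1.08 ± 0.26, adjusted p = 0.0451). Fosl2 had 70.8 and 65.0 CPM in adult and 73.4 and 50.1 CPM in aged dentate spots, while it went from 11.3 and 2.08 to 34.2 and 39.0 CPM in CA1 and from 24.0 and 15.9 to 47.1 and 52.2 CPM in CA3. Immediate early genes had none of 17 above and 2 below, with a median difference of -0.67. Their sum, in plain CPM, went from 842 and 737 in adult to 1242 and 907 in aged dentate spots. It went from 1555 and 1265 to 2842 and 3474 CPM in CA1, and from 1036 and 874 to 1781 and 1787 CPM in CA3. The sum was thus also higher in aged pyramidal spots, where its step was larger, a difference of sums that was not tested. Arc differed by 0.32 ± 0.27 (adjusted p = 0.73). Dcx had 13.6 and 11.5 CPM in adult and 12.8 and 10.7 CPM in aged CA1 spots, and 21.2 and 15.9, then 16.9 and 13.7 CPM in CA3 spots. Its fall with age was larger in the granule layer, but this call was lost without any 1 of the adult or aged sections. Astrocyte genes had 4 of 12 above, with Aldoc at 0.91 ± 0.16, adjusted p = 0.00364, Slc1a3 at 0.78 ± 0.19, adjusted p = 0.0447 and Slc1a2 at 0.69 ± 0.16, adjusted p = 0.0384, and Npy of the neuropeptide list differed by 1.06 ± 0.24, adjusted p = 0.0384. Gfap (0.74 ± 0.24, adjusted p = 0.187), Apoe (0.58 ± 0.16, adjusted p = 0.108), Lct (1.01 ± 0.29, adjusted p = 0.114) and Ighm (1.22 ± 0.31, adjusted p = 0.0650) missed the threshold, so a larger rise of these genes in the granule layer than in the pyramidal layers was not shown. With a section left out, calls were lost for Grm2 (without adult 1), Cemip (without adult 1 or adult 2), Cadps2 (without adult 1 or adult 2), Galnt13 (without adult 1, adult 2 or aged 1), Fosl2 (without adult 2), Egr4 (without adult 1), Tnfrsf25 (without adult 1, adult 2 or aged 1), Mpp3 (without adult 1, adult 2 or aged 1), Aldoc (without adult 1 or adult 2), Slc1a3 (without adult 1, adult 2 or aged 1), Slc1a2 (without adult 1, adult 2 or aged 1) and Npy (without adult 1, adult 2 or aged 1).

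**Figure D5:**
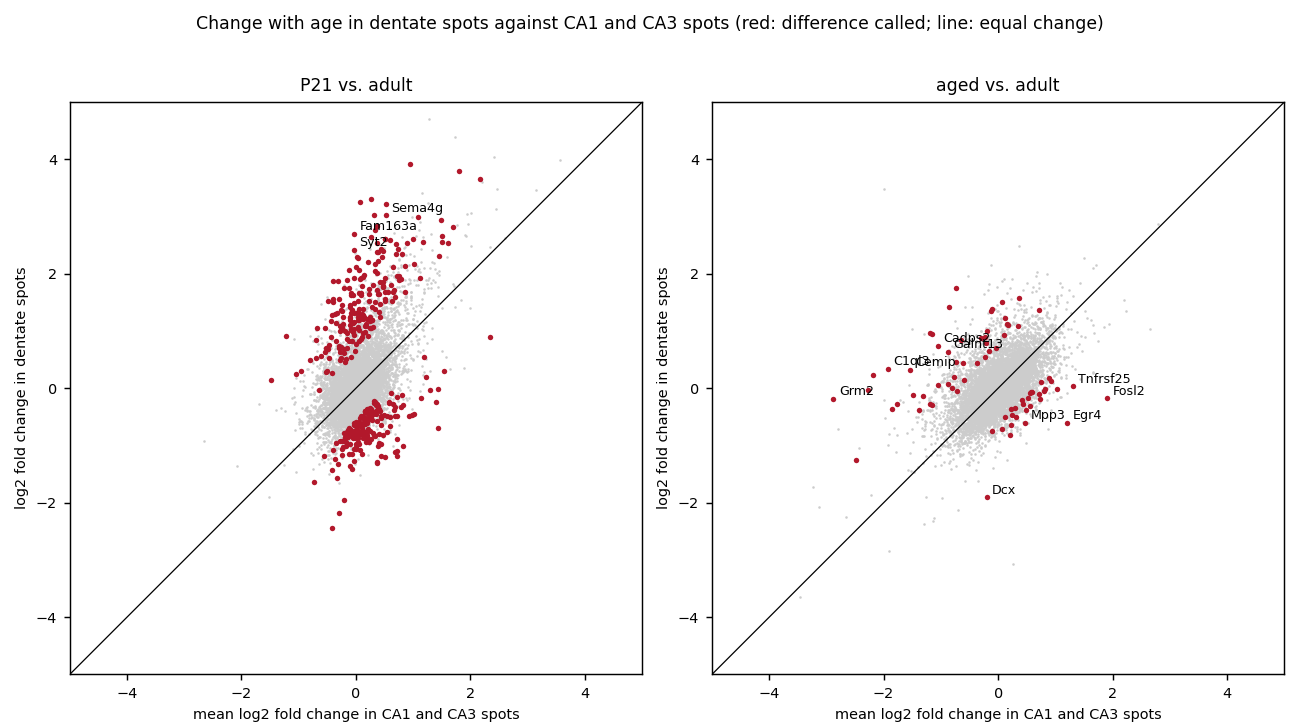
Log2 change of each gene in dentate spots (vertical axis) against the mean of its log2 changes in CA1 and CA3 spots (horizontal axis), for P21 vs. adult and aged vs. adult; coloured points are genes whose difference was called and grey points all others with an estimate in all 3 sets. Most genes lie near the diagonal of equal change, and P21 vs. adult has more called genes away from it (393 plotted) than aged vs. adult (76 plotted).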

How the data were processed

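The authors deposited, for each of the 6 Visium sections, a matrix of raw UMI counts per gene and spot over the same 19465 genes of the probe set. Per the labels, Space Ranger 2.1.0, Seurat 5.1.0 and the mm10 build were used, and the matrix headers name Space Ranger 2.0.0 for P21 and adult and 3.1.1 for aged sections. No cell type or spot annotation was used. The Visium slides of the first version reuse spot barcodes (2612 to 2997 shared between any 2 P21 or adult sections), which name positions and not molecules.

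Spots with at least 500 UMIs were kept (3598, 3314, 2917, 3259, 3679 and 3569 in P21 1 to aged 2). The members and the 35 gene lists were chosen with earlier results of these data known. CA1 and CA3 spots were the top 1% by scores of 4 genes each. Counts were summed per section and tested with edgeR 4.0.16 (R 4.3.3, limma 3.58.1): TMM factors, filterByExpr, detection in over 10% of members at either age compared, quasi-likelihood F test, Benjamini-Hochberg adjustment over all genes tested, with all 6 sections in 1 fit. The standard error was taken as the log2 change over the square root of F. The study also required detection over all spots of all samples, and that criterion was added as an alternative. The difference between layers was tested on 18 sums with the section as a block. Genes tested within members correlated at 0.973, 0.970 and 0.958 between the sections of P21, adult and aged. Adjusted p-values in the text come from these fits. The code was tested on simulated data.

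Named genes were, per comparison, the 10 largest called rises and falls with at least 20 CPM in both sections of the higher age and no overlap, up to 4 called genes of each list by p (or its most abundant gene), the most abundant gene of each list of another cell type, and the genes that the study named for the DG. Per interaction they were the 5 largest differences each way. Dcx, Rtn4r and Rtn4rl1 in P21 vs. adult, interaction values of genes outside those 5, and genes named only as levels were chosen after their values were seen. A few genes that the rule names are not reported here. Alternatives were DESeq2 1.42.0 with its own size factors, plain library sizes, other filters, other members, thinning to the lowest sum, a test against 1.5-fold (glmTreat), the replicate block, other comparison sets and each section left out. The members of each section at or below its median in Ttr or Mbp, and DESeq2 without independent filtering, were added after seeing the data. Plots were drawn with matplotlib 3.10.9 from tables made with Python 3.11.15.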

Additional observations from a re-analysis of the deposited data

Results flagged for a closer look

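For 20 genes, a difference between the granule and pyramidal layers in the change with age was called by the test of the difference itself. They are the genes of the rule with the largest called differences, given as log2 change in dentate spots minus the mean log2 change in CA1 and CA3 spots. Their adjusted p in edgeR's quasi-likelihood test ran from 5.28e-06 (C1ql3) to 0.0470 (Islr). In P21 vs. adult, Vash2, Arsj, Rph3al, Galns, Plk5 and Islr were below the filter on low counts in CA1 spots alone. Cd24a, Arsj, Rph3al and Islr were below it in CA3 spots alone. The sizes of these differences therefore depend on the prior count of the fit. For Arsj, Rph3al and Islr, below the filter in both sets, a difference between layers was not shown.

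In P21 vs. adult, the differences above 0 were Vash2 at 3.41 ± 0.89, Cd24a at 2.78 ± 0.58, Fam163a at 2.65 ± 0.64, Sema4g at 2.49 ± 0.49 and Syt2 at 2.43 ± 0.66. Cd24a had 39.6 and 54.5 CPM at P21 and 8.28 and 3.13 CPM in adult dentate spots, against 17.9 and 13.3, then 17.0 and 9.38 CPM in CA1 spots. Sema4g had 37.4 and 37.0 CPM at P21 and 1.84 and 7.04 CPM in adult dentate spots, 17.1 and 21.6, then 11.3 and 12.5 CPM in CA1, and 33.5 and 65.1, then 25.4 and 43.3 CPM in CA3 spots. The differences below 0 were Arsj at -4.56 ± 1.30, Rph3al at -4.45 ± 0.88, Galns at -2.52 ± 0.57, Plk5 at -2.31 ± 0.51 and Islr at -2.21 ± 0.65. Galns had 19.2 and 19.5 CPM at P21 and 35.9 and 44.6 CPM in adult dentate spots, 12.4 and 1.66, then 1.13 and 1.04 CPM in CA1, and 15.5 and 9.87, then 11.3 and 14.4 CPM in CA3 spots. The level of Galns in CA1 spots at P21 rests on P21 1.

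In aged vs. adult, the differences above 0 were Grm2 at 2.68 ± 0.43, C1ql3 at 2.26 ± 0.25, Cemip at 1.85 ± 0.33, Cadps2 at 1.77 ± 0.32 and Galnt13 at 1.5 ± 0.35. Cadps2 had 45.1 and 36.8 CPM in adult and 78.3 and 59.8 CPM in aged dentate spots, 147 and 201, then 145 and 189.6 CPM in CA1, and 50.9 and 39.0, then 14.7 and 7.78 CPM in CA3 spots, where it was lower in aged. The differences below 0 were Fosl2 at -2.13 ± 0.33, Egr4 at -1.87 ± 0.28, Dcx at -1.70 ± 0.38, Tnfrsf25 at -1.28 ± 0.31 and Mpp3 at -1.08 ± 0.26. Egr4 had 35.9 and 22.7 CPM in adult and 20.3 and 17.9 CPM in aged dentate spots, 78.1 and 58.3, then 103 and 133 CPM in CA1, and 24.0 and 17.3, then 55.1 and 67.3 CPM in CA3 spots. With 1 section left out, C1ql3 alone of these 10 aged differences kept its call in every case. Over all alternatives, C1ql3 kept its call in 12 of 13, and its smallest difference was 0.52. Grm2 kept its call in 8 of 13, with a smallest difference of 0.040.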

How the results depend on the processing

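Of 240 results for single genes, 58 kept their direction and their side of the threshold under every alternative and 9 changed sign under at least 1. In DESeq2 without independent filtering, 68 single-gene calls missed the threshold in the same direction. For genes higher and lower in P21 vs. adult, DESeq2 called 315 and 223 with and without its independent filtering. The top 0.5% of spots gave 307 and 152, and the test against 1.5-fold 267 and 58 (82.2% higher). Members at or below the median in Ttr gave 429 and 237. For aged vs. adult DESeq2 gave 111 and 121, with no adjusted p for 6312 of 10502 genes. DESeq2 without independent filtering, added after seeing the data, gave 99 and 101. The top 0.5% of spots gave 229 higher, and the test against 1.5-fold 4 and 5. Members at or below the median in Mbp gave 221 higher. With 1 section left out, genes higher at P21 numbered 282 to 1086 and lower 170 to 541, and genes higher in aged 59 to 740 and lower 58 to 494. Fits without a section rest on fewer samples, and the cause of the other shifts was not tested.

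For the difference between layers in P21 vs. adult, the counts above and below were 1 and 2 with the top 0.5% of spots, 862 and 293 against all other spots, 121 and 94 after thinning, 135 above against CA1 alone and 71 below against CA3 alone. For aged vs. adult they were 3 and 1 (top 0.5%), 170 and 74 (all other spots), 24 and 17 (CA1 alone), 92 above (CA3 alone), 8 below (plain library sizes), 18 below (top 2%) and 13 below (thinned). With 1 section left out they ran from 10 to 334 above and 14 to 272 below in P21 vs. adult, and from 1 to 192 above and 1 to 88 below in aged vs. adult.

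Low Ttr or low Mbp stands for members at or below their section's median of that gene. Sign changes in P21 vs. adult were all of genes not called (log2 change). Grik4 turned to 0.069 (top 2%), 0.17 (low Mbp) and 0.19 (without P21 1; -0.36 to 0.19 with 1 section left out). B2m turned to 0.023 (top 2%). Ctsb turned to 0.0018 (plain library sizes), 0.040 (top 2%), 0.012 (score without Prox1), 0.022 (thinned) and 0.013 (without P21 2; -0.087 to 0.013 with 1 section left out). Ptgds turned to -0.16 (top 0.5%), -0.11 (score without Dsp), -0.42 (low Ttr), -0.085 (low Mbp) and -0.27 (without adult 2; -0.27 to 0.62). In aged vs. adult, Ttr turned to -1.36 (low Ttr) and -2.75 (without aged 1; -2.75 to 4.52). Mpped1 turned to 0.13 (without aged 2; -1.66 to 0.13), Slc2a1 to -0.12 (low Mbp) and -0.11 (without adult 2; -0.11 to 0.46), Hbb-bs to 0.48 (score without C1ql2) and 0.12 (without adult 1; -1.14 to 0.12), and the layer difference of Arc to -0.095 (without aged 1; -0.095 to 0.80).

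Replicate numbers recur between ages. Same-numbered sections deviated together with correlations of 0.019 (P21 and adult), 0.092 (aged and adult) and 0.064 (P21 and aged), so the number was not taken as a pairing. With the number as a replicate block, 854 genes were higher and 439 lower in P21 vs. adult, and 438 higher and 341 lower in aged vs. adult. At the depth of these sums, genes of low count such as Mki67 fell below the filter and were not tested.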

Other observations

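Spots are not replicates, and the values per spot that follow are descriptions. Dcx was at 0 UMIs in 3 of 36 and 5 of 34 members at P21, in 12 of 30 and 18 of 33 in adult, and in 28 of 37 and 20 of 36 in aged sections, while its median was 77.8 and 133 CPM at P21, 23.4 and 0 CPM in adult and 0 in both aged sections. Igfbpl1 was at 0 in 9 and 13 members at P21, in 20 and 28 in adult and in 37 of 37 and 33 of 36 in aged. Depth differed between sections, with medians of 26013 UMIs per member in aged 1 and 74041.5 in aged 2, so these counts of spots without a UMI are not set against each other between sections.

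Lct was spread over the layer, with median CPM per member of 63.1 and 78.7 at P21, 175 and 185 in adult and 392 and 323 in aged. Ighm likewise had medians of 0 at P21, 47.8 and 76.2 in adult and 154 and 148 in aged, and C4b had medians of 0 at P21 and in adult and of 97.8 and 68.5 in aged. The higher aged values of Lct, Ighm and C4b thus showed in the median spot and not in a few spots alone. Arc had medians of 34.0 and 39.0 CPM at P21, 49.4 and 24.5 CPM in adult and 193 and 75.6 CPM in aged. Ttr was different. In aged 1 its median was 258 CPM and its highest member 35465 CPM. The top 4 members held 72.3% of its CPM summed over members.

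Levels in this paragraph are plain CPM, without TMM scaling. Slc1a2, the glutamate transporter of astrocytes, was lower in members than 1 step away. It stood in members at 1187 and 1247 CPM at P21, 716 and 650.3 CPM in adult and 1410.4 and 864 CPM in aged. At 1 step it stood at 2137 and 2438, 1862 and 1907, then 2739 and 2253 CPM in the same order. Gad1, an enzyme of GABAergic neurons, stood in members at 37.6 and 33.8 CPM at P21, 43.0 and 37.8 CPM in adult and 93.3 and 77.0 CPM in aged.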
